A study of Mus musculus with 6 samples.

Results

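The subject is Gas5 and other noncoding host genes of small nucleolar RNAs (snoRNAs), measured on arrays of mouse HSC. These hematopoietic stem cells are the rare cells of the marrow from which every blood lineage derives. The set was defined by name as Gas5, Snhg1, Snhg3, Snhg5, Snhg6, Snhg8 and Snhg12, and held every probe set that the array's annotation names for one of them. Of these 7 genes, 2 had probe sets of their own, Gas5 with 4 and Snhg5 with 1, so the set held 5 of the 28815 probe sets on each array and 2 of the 19935 genes they name. A single probe set listed Snhg8 beside a second symbol and was not used, and Snhg1, Snhg3, Snhg6 and Snhg12 were not analysed here except through snoRNAs that lie inside them. Gas5 was taken up because it measured lower in the cells lacking Selp in these same data, so its difference between the genotypes is described below and not tested.

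The study compared Selp-/- HSC, null for the gene that encodes the cell adhesion molecule P-selectin, with wild-type (WT) HSC, to ask through which genes the receptor acts in these cells. Mice of both genotypes were C57BL/6, and there were 3 arrays of each, numbered 1 to 3 within a genotype. The sources used here do not describe how the Selp allele was made, how old the mice were or how the HSC were sorted. Selp has no probe set named for it in the annotation used, so its own level was not analysed here. No label states whether each array stands for its own mouse, so a p-value here sets a difference against array-to-array spread that may be technical.

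A snoRNA host gene makes a spliced transcript whose introns release snoRNAs, short RNAs that guide chemical modification of ribosomal RNA. Those of the C/D box class (Snord) guide ribose methylation and those of the H/ACA box class (Snora) guide pseudouridylation, while a few of either class take part in cutting the ribosomal RNA precursor. The spliced remainder of many host genes starts with a run of pyrimidines, the terminal oligopyrimidine tract also found in ribosomal protein mRNAs, and is broken down by nonsense-mediated decay as it is translated. Gas5, named for growth arrest-specific, is known to accumulate in cells that stop growing and to bind the glucocorticoid receptor.

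The starts of the host transcripts are shown because the pyrimidine start is a known feature of many host genes and can be looked for in each. RefSeq gives 7 start windows for 6 of the 7 genes, and 4 are printed: both of Gas5, that of Snhg5, the other gene measured directly, and that of Snhg12, whose snoRNAs are described further on. Each sequence covers 60 bases before the annotated start and 30 from it, 5′ to 3′ in mouse build GRCm38.p6. Capitals mark a TATA motif in the 40 bases before the start, a cyclic AMP response element, and a run of at least 5 pyrimidines that holds the first transcribed base. The motifs were chosen after the sequences were seen. The starts differ among these genes: such a run holds the first base in 3 of the 7 windows, the downstream one of Gas5 and those of Snhg8 and Snhg12.
Gas5, downstream start, chr1:161035106-161035195, plus strand: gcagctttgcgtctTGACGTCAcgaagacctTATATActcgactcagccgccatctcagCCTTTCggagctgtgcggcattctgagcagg
Gas5, upstream start, chr1:161034541-161034630, plus strand: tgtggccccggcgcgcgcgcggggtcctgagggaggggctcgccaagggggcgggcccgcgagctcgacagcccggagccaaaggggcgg
Snhg5, chr9:88522868-88522957, minus strand: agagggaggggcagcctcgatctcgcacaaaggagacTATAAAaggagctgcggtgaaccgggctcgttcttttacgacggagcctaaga
Snhg12, chr4:132308618-132308707, plus strand: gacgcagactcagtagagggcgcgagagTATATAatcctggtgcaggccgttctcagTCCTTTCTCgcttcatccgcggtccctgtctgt

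At its downstream start Gas5 begins with a C followed by 4 pyrimidines, and a TATATA lies 29 bases before that base. The same kind of pyrimidine start was found in 2.51% of the 32851 RefSeq windows of equal length. TATAAA or TATATA on either strand in the 40 bases before the start was found in 3.87%, and both features together in 0.107%. The pair is not particular to Gas5, since Snhg8 also has both, with TATAAA 30 bases before its start. Snhg1, Snhg5 and Snhg12 have a TATA motif without a C and 4 pyrimidines at the first base. The letters TGACGTCA, the same on both strands, lie 46 bases before the downstream Gas5 start and occur in the 250 bases before the start in 1.55% of windows. None of these motifs is in the printed stretch of the upstream Gas5 start. In Snhg12 the first base lies within a run of 9 pyrimidines. The first base of Snhg5 is not a pyrimidine, and its longest run in the first 30 bases has 7. A match is a description of the letters only, and the sources used here do not say from which start the measured Gas5 RNA came.

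The deposited values are linear intensities of Affymetrix probe sets, with array medians between 563 and 751. They were background-corrected, log2-transformed and brought to common quantiles, and the resulting log2 level is the scale of all values below unless an intensity is named. Probe sets whose mean log2 level was in the lowest 40% were not tested, which left 17289 probe sets and 4 of the 5 in the set. Levels of different probe sets cannot be set against each other, so levels are compared between arrays for 1 probe set at a time. The sums over lists of markers further on are an exception, and the brightest probe sets weigh most in them. Over those 17289 probe sets limma's genotype test at an adjusted p of 0.05 gave 0 calls in either direction, or 0%. The lowest adjusted p was 1, and 122 probe sets (0.706%) had an unadjusted p under 0.05. With the array number as a block the test called 0, with a lowest adjusted p of 0.124 and 630 probe sets (3.64%) under an unadjusted 0.05.

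Gas5 measured lower in Selp-/- HSC with each of its 4 probe sets, between 1.23-fold and 2.06-fold for the 3 that were tested. In the brightest, 10351026, the deposited intensity was 1702.5, 1419 and 1105.5 in Selp-/- 1, 2 and 3, against 3199, 2481 and 1937.5 in WT 1, 2 and 3. All 3 Selp-/- intensities were below the lowest of WT, so the genotypes did not overlap, as for 1.97% of all tested probe sets in this direction after normalization. On the normalized scale that probe set measured 10.40, 10.51 and 9.83 in Selp-/- HSC, against 11.64, 11.60 and 10.64 in WT HSC. The means were 10.25 ± 0.37 in Selp-/- and 11.29 ± 0.57 in WT (SD, n = 3 each), a difference of -1.04 (SE 0.32 in limma, or 0.12 with array number as a block), so that WT HSC had 2.06 times more. Within each genotype the array numbered 3 was the lowest. Taken between arrays of the same number, the difference was -1.24 for number 1, -1.09 for number 2 and -0.81 for number 3. Of the 17289 probe sets tested, 13 (0.0752%) had a difference as low as this or lower.

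The other 3 Gas5 probe sets gave smaller differences. Probe set 10351037 measured 10.26, 10.54 and 10.08 in Selp-/- HSC, against 10.98, 10.93 and 10.42 in WT HSC. Its difference was -0.48 (SE 0.20), and Selp-/- 2 lay above WT 3, so the genotypes overlapped. Probe set 10351035 measured 9.08, 8.98 and 8.62 in Selp-/- HSC, against 9.10, 9.77 and 8.71 in WT HSC. That difference of -0.30 (SE 0.27) lay almost wholly in the arrays numbered 2, at -0.79, with -0.01 and -0.09 for numbers 1 and 3. Without WT 2 it was -0.01, and in the deposited intensities Selp-/- 1, at 696, lay above WT 1, at 637. The dimmest, 10351039, was not tested and measured 7.36, 7.64 and 7.0 in Selp-/- HSC, against 7.71, 8.16 and 7.10 in WT HSC.

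All 12 differences between same-numbered arrays, 3 for each Gas5 probe set, were thus below 0 after normalization, from -1.24 to -0.01. Among all tested probe sets 11.2% were below 0 in all 3 numbers. The 4 probe sets read 1 gene in the same RNA and do not count as separate evidence. The mean over all 4 was -0.54, an alternative chosen after seeing the data. The annotation used here does not say which part of Gas5 each probe set covers. In RefSeq the span of Gas5 overlaps that of Zbtb37, and signal from an overlapping gene was not separated.

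**Figure D1:**
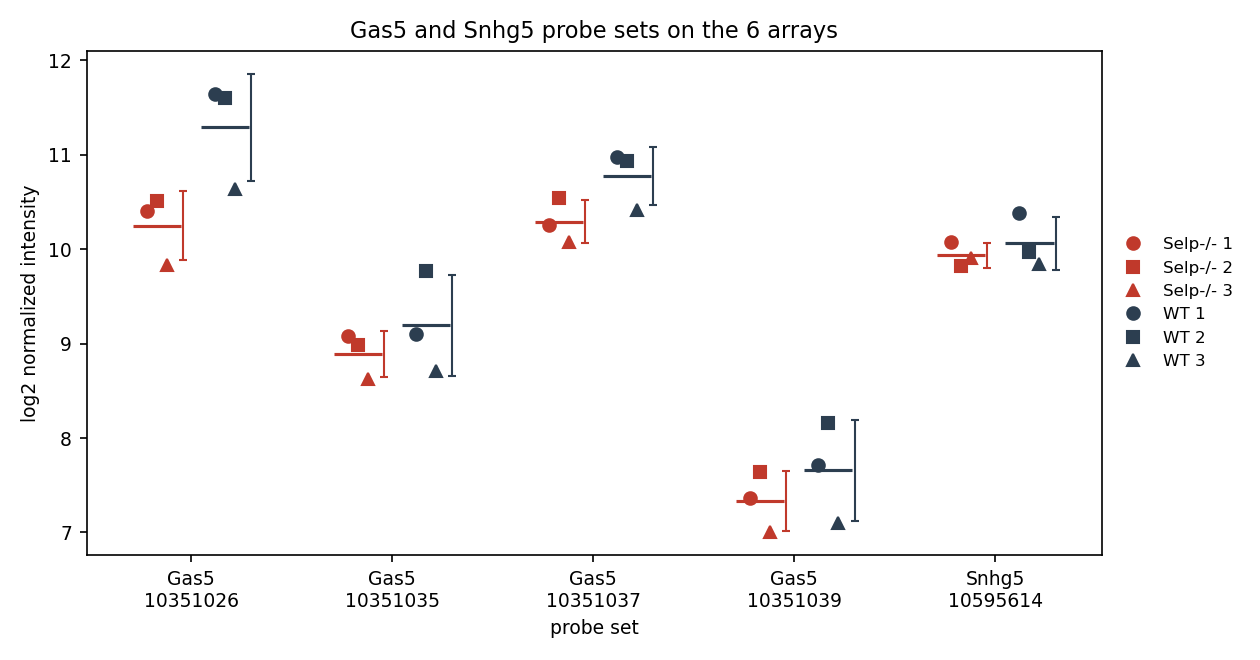
Log2 normalized intensity (y axis) of the 4 Gas5 probe sets and the Snhg5 probe set (x axis) on the 3 Selp-/- arrays (red) and the 3 WT arrays (dark), with a symbol for each array number, a bar at the mean and an error bar of 1 SD. In Gas5 10351026 the 3 Selp-/- arrays, from 9.83 to 10.51, lie below the 3 WT arrays, from 10.64 to 11.64, while the genotypes overlap in the other 4 probe sets.

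Snhg5, the host of C/D box snoRNAs of the U50 family, was the other gene of the set with a probe set of its own. Its deposited intensity was 1370.5, 957.5 and 1163.5 in Selp-/- 1, 2 and 3, against 1396.5, 920 and 1152.5 in WT 1, 2 and 3. After normalization it measured 10.08, 9.82 and 9.91 in Selp-/- HSC, against 10.38, 9.97 and 9.84 in WT HSC, and the genotypes overlapped. The means were 9.94 ± 0.13 in Selp-/- and 10.06 ± 0.28 in WT (SD, n = 3 each). The difference of -0.12 (SE 0.17) was smaller than the spread of either genotype's arrays and turned to 0.01 without normalization and to 0.04 without WT 1. Between arrays of the same number it was -0.30, -0.15 and 0.08 for numbers 1, 2 and 3, so it was not below 0 in all of them. The Gas5 difference minus the Snhg5 difference was -0.92, and it was not tested because Gas5 was chosen for its difference.

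Noncoding host genes outside the set gave differences near 0. Of the 14 listed, 5 had probe sets of their own, 8 in all, and 5 of those probe sets were tested. Over the 8 the difference ran from -0.06 to 0.17, and the median over the 5 tested was 0.012, against 0.0054 over all tested probe sets. Snhg15 gave -0.06 (SE 0.14), the brightest probe set of Snhg11 0.01 (SE 0.10) and that of Snhg17 0.00 (SE 0.14). A second Snhg17 probe set, 10489239, gave 0.17 (SE 0.10), with the 3 Selp-/- arrays above the 3 WT arrays, as for 2.24% of all tested probe sets. Snhg16 and Dancr, which hosts an H/ACA snoRNA and is known to restrain differentiation in other progenitors, were too dim to be tested and gave 0.01 and -0.04. With the tested noncoding hosts pooled with Snhg5, an alternative chosen after seeing the data, the median difference was -0.03 and Gas5 lay -1.01 from it.

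The snoRNAs inside the host genes gave no set of differences like that of Gas5. RefSeq places 8 snoRNAs inside Gas5, of which 1, Snord47, had a probe set with its symbol alone. Snord47 measured 9.03, 8.76 and 8.76 in Selp-/- HSC, against 9.37, 8.57 and 9.23 in WT HSC. Selp-/- 2 lay above WT 2 and the genotypes overlapped, with a difference of -0.21 (SE 0.22) and same-number differences of -0.34, 0.19 and -0.47. Which strand these snoRNAs lie on was not checked, and whether a snoRNA probe set reads the mature snoRNA or the unspliced host transcript was not tested.

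Both snoRNAs of Snhg3, Snora73a and Snora73b, are U17 RNAs, which take part in cutting the ribosomal RNA precursor. Snora73a measured 10.20, 10.47 and 10.94 in Selp-/- HSC, against 10.14, 9.87 and 10.31 in WT HSC. It was higher in Selp-/- within every array number, by 0.05, 0.60 and 0.63, as were 12.6% of all tested probe sets, but Selp-/- 1 lay below WT 3. The mean difference was 0.43 (SE 0.22). Snora73b gave 0.19 (SE 0.28), with Selp-/- 1 below WT 1. The 2 snoRNAs of the same family can share sequence, so how the signal divides between their probe sets is uncertain. Rcc1, the nuclear exchange factor encoded beside Snhg3, gave 0.19 (SE 0.16).

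Of the snoRNAs of Snhg12, the H/ACA RNAs Snora16a and Snora44, the differences were 0.19 (SE 0.34) and 0.13 (SE 0.33). Snord22, inside Snhg1, and Snord87, inside Snhg6, were too dim to be tested and gave -0.14 and 0.19. Over the 7 snoRNA probe sets the difference ran from -0.21 to 0.43, and 0 of the 7 were below 0 within all 3 array numbers.

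**Figure D2:**
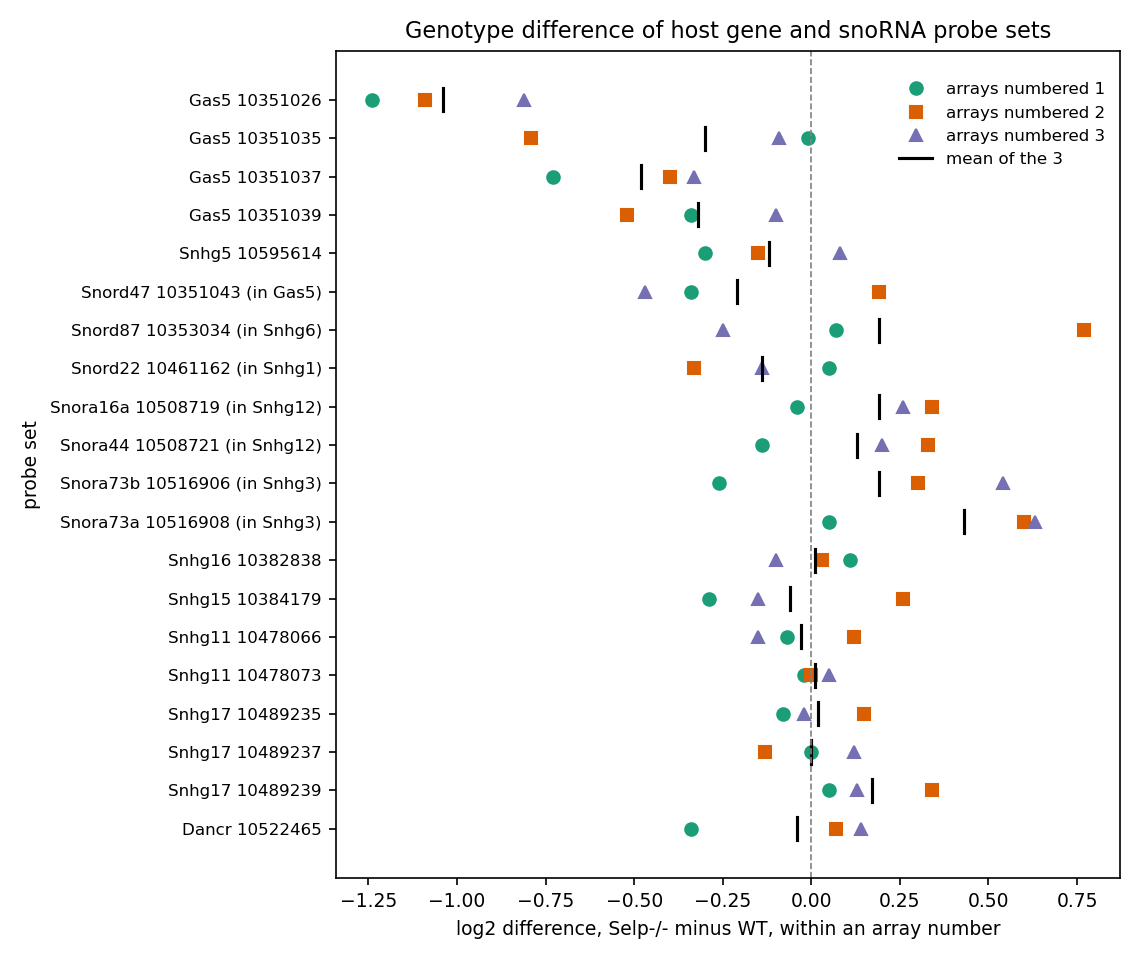
Log2 difference, Selp-/- minus WT, between arrays of the same number (x axis) for each probe set of Gas5, Snhg5, the snoRNAs inside host genes and the other noncoding host genes (y axis), with a symbol for each array number and a black bar at the mean of the 3. The 4 Gas5 probe sets have all 12 points below 0, down to -1.24, while every other probe set shown has points on both sides of 0 or, for Snora73a and Snhg17 10489239, above it.

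The rest of the class was measured through protein-coding hosts. Of 34 protein-coding snoRNA host genes on the list, 27 were tested, with 18 above 0 and 9 below and a median difference of 0.036. Limma called 0 of them. Wdr43, a ribosome assembly factor, gave 0.18 (SE 0.19) and the ribosomal protein gene Rpl12 0.17 (SE 0.10). The genotypes did not overlap in 1 of the 27, Rpl12, which was higher in Selp-/- HSC, as were 2.24% of all tested probe sets without overlap. Over all 27 the difference ran from -0.11 to 0.19, beside -1.04 in the brightest Gas5 probe set. Cytosolic ribosomal protein genes are known for a pyrimidine start like that at the downstream start of Gas5. Their own starts were not examined here. Of the 54 ribosomal protein genes tested, 31 were above 0 and 23 below, with a median of 0.0058. The genotypes did not overlap in 4 of the 54, with 3 higher in Selp-/- HSC and 1, Rps15a, lower. Over all tested probe sets 2.24% were higher without overlap and 1.97% lower, so these few genes are not read as a result. Among the 54, Rps15a gave -0.32 (SE 0.17), Rpl34 0.24 (SE 0.18) and Rpl26 -0.22 (SE 0.21).

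Genes whose products act on host transcripts and snoRNAs were also listed. Proteins of snoRNA particles and their assembly factors had 13 of 17 tested genes above 0, with a median of 0.051. Nhp2, a core protein of H/ACA particles, measured 10.66 ± 0.37 in Selp-/- HSC and 10.24 ± 0.03 in WT HSC (SD, n = 3 each), a difference of 0.42 (SE 0.20). Nop10, of the same particles, and the assembly factor Pih1d1 each gave 0.19 (SE 0.16 and 0.13). Factors of nonsense-mediated decay had 6 of 10 above 0 and a median of 0.066, with 0.26 (SE 0.34) for the endonuclease Smg6, 0.12 (SE 0.16) for the helicase Upf1 and 0.11 (SE 0.18) for Eif4a3 of the exon junction complex. Below 0 were 4 of 17 genes of snoRNA particles and 4 of 10 of nonsense-mediated decay, beside 48.2% of all tested probe sets. Limma called 0 genes of either list, and the lists as wholes were not tested.

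The mTOR pathway controls translation of transcripts with a pyrimidine start. Of its 13 tested genes, 9 were above 0, with a median of 0.070. Rheb, the GTPase that activates mTOR, gave 0.27 (SE 0.16), the cap-binding protein Eif4e 0.20 (SE 0.16) and the inhibitor Tsc1 0.16 (SE 0.20). The glucocorticoid receptor and genes it induces had 7 of 9 above 0 and a median of 0.10, with 0.34 (SE 0.58) for the kinase Sgk1, 0.22 (SE 0.19) for Zbtb16 and 0.14 (SE 0.30) for Klf9. Genes of S phase and mitosis had 18 of 23 above 0 and a median of 0.058, with 0.22 (SE 0.20) for Cdc20, 0.21 (SE 0.17) for Mcm5 and 0.19 (SE 0.14) for Cdt1. Below 0 were 4 of 13, 2 of 9 and 5 of 23 genes of these 3 lists, beside 48.2% of all tested probe sets. Limma called 0 genes of the 3 lists, and the lists as wholes were not tested.

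Gas5 and Selp are on mouse chromosome 1, with 33 protein-coding genes between them in the RefSeq gene order. The neighbours of Gas5 that were tested lay near 0 between the genotypes. Zbtb37, a zinc finger gene whose span overlaps that of Gas5, measured 9.04, 9.12 and 8.61 in Selp-/- HSC, against 8.65, 9.18 and 8.96 in WT HSC, and gave -0.01 (SE 0.19). Rc3h1, which encodes the RNA-binding protein roquin, gave 0.05 (SE 0.23) and -0.04 (SE 0.20) with its 2 probe sets. Klhl20, an adaptor of a ubiquitin ligase, gave -0.03 (SE 0.12) and Suco -0.11 (SE 0.12).

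**Figure D3:**
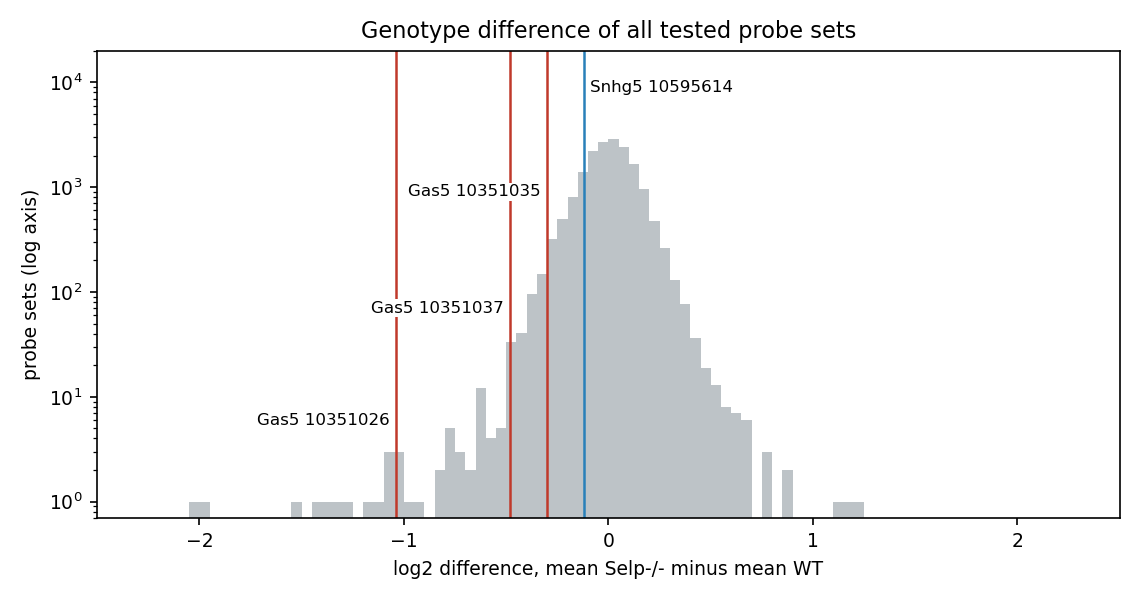
Histogram of the log2 difference, mean Selp-/- minus mean WT (x axis), over the 17289 tested probe sets, with the number of probe sets in each bin on a log axis. The red lines mark the 3 tested Gas5 probe sets at -1.04, -0.48 and -0.30, and the blue line marks Snhg5 at -0.12, inside the bulk of the distribution.

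The probe sets whose pattern over the 6 arrays was most like that of Gas5 10351026 were found by Pearson's r among 2473 probe sets with 1 symbol and an SD of at least 0.3. The values of r share the 6 arrays and their genotypes, and they are given as a description. Another Gas5 probe set, 10351037, came first at 0.977. The others were Mid1, a microtubule-associated ubiquitin ligase, at 0.949, Ost4, a subunit of the oligosaccharyltransferase, at 0.935, the heme synthesis enzyme Ppox at 0.922 and the inositol phosphate kinase Ip6k2 at 0.888. Mid1 measured 9.56, 9.37 and 9.36 in Selp-/- HSC, against 11.24, 11.23 and 10.14 in WT HSC. It shared with Gas5 both the lower level in Selp-/- HSC and the lowest WT value in WT 3. By the same measure Snhg5 stood at 0.571, Snord47 at 0.191 and Snora73a at -0.853.

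Apart from the genotype, Gas5 differed between the array numbers, a term that played no part in choosing it. In a model with genotype and array number, limma gave Gas5 10351026 an adjusted p of 0.0214 for the number, as one of 2217 probe sets (12.8% of those tested) past 0.05. Probe sets that passed with the arrays numbered 3 lowest made up 6.55% of those tested, and those that passed with them highest 6.02%. It fell by 0.79 (SE 0.15) in arrays numbered 3 relative to those numbered 1 and by 0.82 relative to those numbered 2, with 2 arrays of each number. The medians of these differences over all tested probe sets were -0.013 and -0.017. Selp-/- 3 lay 0.63 below the mean of Selp-/- 1 and 2 on the log2 scale, and WT 3 lay 0.98 below that of WT 1 and 2. The adjusted p was 0.0508 without Selp-/- 2, 0.07 without WT 2, 0.184 without WT 3 and 0.369 without genotype in the model. Gas5 10351035 and 10351037 had adjusted p of 0.114 and 0.126, at -0.43 and -0.37 in arrays numbered 3 relative to number 1. Of the 5 tested probe sets of Gas5 neighbours 1 passed, Rc3h1 10350992. It was at -0.54 relative to number 1 and -0.58 relative to number 2 (SE 0.13, limma adjusted p = 0.0402). The rest had limma adjusted p from 0.176 to 0.782.

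Among the snoRNAs, both from Snhg12 fell in the arrays numbered 3. Snora16a measured 10.34, 10.18 and 9.48 in Selp-/- 1, 2 and 3, and 10.38, 9.83 and 9.22 in WT 1, 2 and 3. The array numbered 3 was the lowest of each genotype, and relative to number 1 the difference was -1.01 (SE 0.14), with a limma adjusted p of 0.0119. Snora44 measured 9.81, 10.01 and 9.11 in Selp-/- 1, 2 and 3, and 9.95, 9.67 and 8.91 in WT 1, 2 and 3. Its difference of -0.87 (SE 0.15) had a limma adjusted p of 0.0162. Without WT 3 these adjusted p were 0.0623 and 0.0954. The 2 of 5 tested snoRNA probe sets that passed both come from Snhg12 and are not separate host genes.

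The U17 snoRNAs of Snhg3 lay the other way. Snora73b measured 10.21, 10.33 and 11.12 in Selp-/- 1, 2 and 3, and 10.48, 10.03 and 10.58 in WT 1, 2 and 3. It was highest in the array numbered 3 of each genotype, at 0.51 relative to number 1 and 0.68 relative to number 2 (SE 0.20, limma adjusted p = 0.117). Snora73a was at 0.46 relative to each (SE 0.17, limma adjusted p = 0.167), and neither passed the test. Snhg5 did not pass either, at -0.36 relative to number 1 and -0.02 relative to number 2 (SE 0.14, limma adjusted p = 0.188). Of the 5 tested probe sets of other noncoding hosts 0 passed, with limma adjusted p from 0.317 to 0.881.

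Protein-coding hosts passed for 1 of 27 genes, or 3.70%, ribosomal protein genes for 3 of 54, or 5.56%, and snoRNA particle genes for 0 of 17, beside the 12.8% of all probe sets. Factors of nonsense-mediated decay passed for 2 of 10 genes, Smg6 among them (limma adjusted p = 0.00893), and mTOR pathway genes for 0 of 13. The glucocorticoid receptor and its targets passed for 3 of 9, of which 2 were lowest and 1 highest in the arrays numbered 3. Relative to number 1, Sgk1 was at 1.64 (limma adjusted p = 0.00339) and Klf9 at -0.59 (limma adjusted p = 0.0194). Genes of S phase and mitosis passed for 4 of 23. The medians in arrays numbered 3 relative to number 1 were -0.19 for protein-coding hosts, -0.13 for ribosomal protein genes and -0.20 for snoRNA particle genes.

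Markers of some cell types moved with the same term. Of 16 HSC markers listed, 14 were tested and 10 passed the limma test for array number, all lowest in number 3. Their summed normalized level, on the linear scale, was 17372 in Selp-/- 3 and 20138 in WT 3, against 34917 to 43443 in the arrays numbered 1 and 2. Hlf, a transcription factor that defines HSC, measured 8.81 in Selp-/- 3 and 8.88 in WT 3, close to the 8.79 below which probe sets were not tested, against 12.13 to 12.53 in the other arrays. Gata2, also on the HSC list, went the other way, at 12.30 in Selp-/- 3 and 13.02 in WT 3, against 11.54 to 12.14 elsewhere. It did not pass (limma adjusted p = 0.0573). All 7 tested mast cell and basophil markers passed, highest in number 3, with a summed level of 46281 in Selp-/- 3 and 61295 in WT 3, against 4439 to 5598 elsewhere. So did 9 of 10 neutrophil and 6 of 8 monocyte markers. Of 5 erythroid markers 2 passed, with 1 of them lowest in number 3. Of 6 megakaryocyte markers 2 passed, highest in number 3, and of 6 B lymphoid markers 2 passed, lowest in number 3. Over all tested probe sets 12.8% passed, and with so few markers these last counts are not read as a result. The arrays numbered 1 also stood apart from those numbered 2 in markers of other cell types. The erythroid markers summed to 20411 in Selp-/- 1 and 20849 in WT 1, against 6581 in Selp-/- 2 and 7265 in WT 2. Car1, the brightest of them, made up most of the sums in the arrays numbered 1. It measured 13.95 in Selp-/- 1 and 14.01 in WT 1, against 11.91 in Selp-/- 2 and 12.08 in WT 2. The median deviation of the erythroid markers from their 6-array means was 0.39 in Selp-/- 1 and 0.45 in WT 1. In Selp-/- 2 and WT 2 it was -0.22 and -0.13. The neutrophil markers summed to 54583 in Selp-/- 1 and 45892 in WT 1, against 22444 in Selp-/- 2 and 24275 in WT 2. The part of these cell types in the Gas5, Snhg5 and snoRNA values was not tested, and fewer cells of a type and less RNA per cell cannot be told apart in such samples.

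Between the genotypes the same sums overlapped. The HSC markers ran from 17372 to 43443 in Selp-/- HSC and from 20138 to 40914 in WT HSC, with 7 of the 14 tested genes above 0 and 7 below. In the arrays numbered 1 and 2 alone, the Gas5 difference was -1.14 and that of Snhg5 -0.22.

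**Figure D4:**
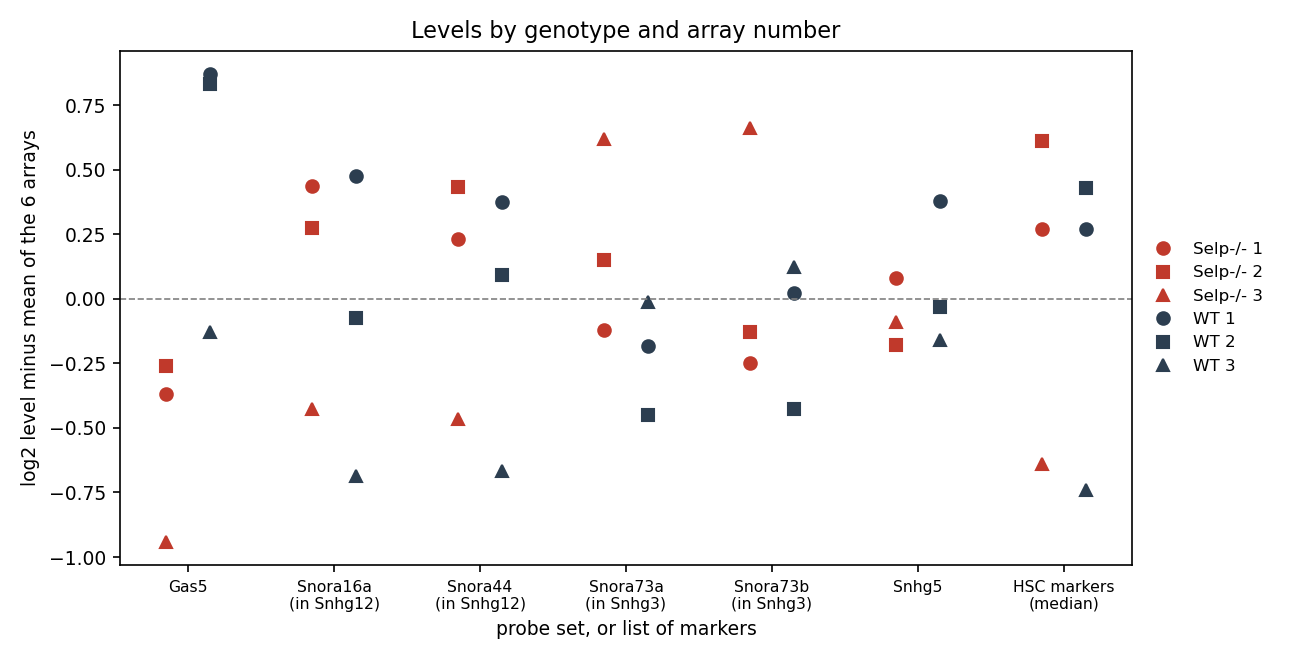
Log2 level minus the mean of the 6 arrays (y axis) for Gas5 10351026, snoRNAs of Snhg12 and Snhg3, Snhg5 and the median over the HSC markers (x axis), with Selp-/- arrays in red, WT arrays in dark and a symbol for each array number. The triangles of arrays numbered 3 lie lowest within each genotype for Gas5, Snora16a, Snora44 and the HSC markers, and highest for Snora73a and Snora73b, while only Gas5 has all Selp-/- arrays below all WT arrays.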

How the data were processed

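The deposited table holds linear probe set intensity for 6 arrays, all multiples of 0.5. The authors used MAS5, version not stated, per the submitters' processing notes, and any scale factor is unknown. Intensities were corrected with normexp (offset 50), log2-transformed and quantile normalized with limma 3.58.1 under R 4.3.3. Probe sets under the 40th percentile of mean level (8.79) were left out. Genotype was fitted with lmFit and eBayes with a variance trend, two-sided, adjusted by Benjamini-Hochberg at 0.05. The array number was tested by an F test in a model with genotype. SE are from the genotype fit unless a difference between array numbers is named. Of 28815 probe sets, 21780 had 1 symbol, 1605 several and 5430 none, per the platform annotation. Of those with 1, 21689 matched RefSeq (GRCm38.p6), used for names, gene order and promoter windows. The files name no genome build.

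Arrays of the same number deviated together from their genotype means, with correlations of 0.428, 0.526 and 0.814 for numbers 1, 2 and 3. Deviations within a genotype sum to 0, so a shift shared by the arrays numbered 3 also raises the values for 1 and 2. Correlations between arrays of different numbers were not computed, so whether the numbers, which come from the sample titles, mark pairs was not tested. The genotype fit and its SE are unpaired, and the fit with the number as a block is an alternative. The members and lists were chosen with earlier results of these data known. Named genes are the members, their snoRNAs, the 5 probe sets most like Gas5, up to 3 genes of each list by size of difference, and tested neighbours. Hlf and Car1 were named after their values were seen. The fits were run on simulated data whose noise was the spread left after genotype and array number were fitted. Most simulated probe sets had no array number difference, so the simulation does not show what the genotype fit can detect here. The number of arrays limits the precision.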

Additional observations from a re-analysis of the deposited data

How the results depend on the processing

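With 3 arrays of a genotype an exact two-sided test of a single value cannot go below 0.1. The genotype test gave 0 calls under every alternative except in the arrays numbered 1 and 2 alone, where it gave 4, all lower in Selp-/- HSC, of which 1 was Mid1 (-1.75, limma adjusted p = 0.016) and the other 3 had no single gene symbol. With the replicate block the calls were 0, the Gas5 difference -1.04 and that of Snhg5 -0.12, so pairing by number changed no other call. The Gas5 difference ran from -1.36 to -0.83 when 1 array was left out, was -0.97 without background correction, -0.99 with median centring and -0.83 without normalization, where the median of all probe sets was 0.11. Its mean over all 4 probe sets was -0.54. The Snhg5 difference ran from -0.24 to 0.04 and the difference of the 2 from -1.13 to -0.72 when 1 array was left out. Genotype calls stayed at 0 to 0 there, and array number calls ran from 1036 to 2153, with 1288 without WT 2 and 1036 without WT 3. Without normalization 5901 probe sets passed for array number, and 87 in the arrays numbered 1 and 2 alone, where Gas5 had a limma adjusted p of 0.969. The cause of these moves was not tested.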
